A study of Mus musculus with 24 samples.

Results

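Transcripts were compared between day 7 and day 1 on Matrigel in HBC-3 cells, a mouse hepatoblast line, and the members are the 3 arrays labelled day 7 and the 3 labelled day 1, 6 of the 24 arrays of the series. The day 7 group is HBC-3 cells after 7 days of differentiation, on arrays A, B and C, and the day 1 group is HBC-3 cells after 1 day, on arrays A, B and C. The series covers day 0 and days 1 to 7 with 3 arrays a day, and the labels name no genetic alteration. In both groups Cy5 marked the sample and Cy3 marked undifferentiated HBC-3 cells on the same array, after amplification of total RNA. A value is read as a log2 ratio of the sample over that undifferentiated reference, the likely base and direction, and 0 means equal signal in both channels. The labels describe stripping of the cells from their STON+ feeder layer with trypsin before the experiment. The model is 1 cell line, and separate cultures are not stated for the 3 arrays of either day. The p-values are therefore limited to array-to-array spread, part or all of which may be technical. Values of a gene on 3 arrays are listed in the order A, B, C.

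Matrigel is a gel of basement membrane proteins rich in laminin and type IV collagen. Hepatoblasts are the bipotent progenitors of the fetal liver, which give rise to hepatocytes and to bile duct cells, and contact with basement membrane matrix is known to promote polarity and duct-like organisation in liver epithelial cells. Cells that differentiate commonly leave the cell cycle, and their adhesion, matrix and secretory transcripts change along the way. The question addressed is which transcripts kept changing after the first day and which had moved by day 1 and then turned back.

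On the 6 arrays, 15493 to 22149 of 24157 features had a value, and the number of arrays limits the precision. Day 7 arrays A and B correlated at 0.753 across genes and features, while day 7 array C correlated with them at 0.545 and 0.501. Day 1 arrays A and B, A and C, and B and C correlated at 0.757, 0.893 and 0.799. The spread of the log2 ratios was larger on day 7 array C (SD 1.042) than on its arrays A and B (0.753 and 0.739) and on the day 1 arrays (0.588, 0.581 and 0.557). Array C of day 7 stood apart together with the C arrays of days 4 to 6, and these late C arrays correlated with each other at 0.802 to 0.963. Total counts are therefore given with and without day 7 array C, as are the counts or medians of several gene lists.

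By day 7 the cells carried more transcript of secreted and matrix-binding proteins such as clusterin, selenoprotein P and decorin, and of lysosomal proteins, than at day 1. They carried less transcript of mitotic genes, and of versican and collagen genes that had been high at day 1. Of 28 integrin and focal adhesion genes 4 were lower, and of 42 actin and tubulin genes 4 were. The median difference of each of these 2 lists changed sign in 4 alternatives. In these bulk samples, a change in the number of cells of one kind and a change in RNA per cell cannot be told apart. Of 13158 genes and unnamed features tested, 305 (2.32%) differed between day 7 and day 1 at an adjusted p under 0.05 (limma), with 167 higher (1.27%) and 138 lower (1.05%) at day 7. Among 6561 genes with a symbol, 90 rose (1.37%) and 77 fell (1.17%), and the median difference over all of them was 0.02. Without day 7 array C, 79 differed, 51 higher and 28 lower. Leaving out day 1 array A, B or C gave 60, 106 and 59, and leaving out day 7 array A gave 164. With any single array left out, 24 genes were called each time, 14 of them higher and 10 lower at day 7.

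**Figure D1:**
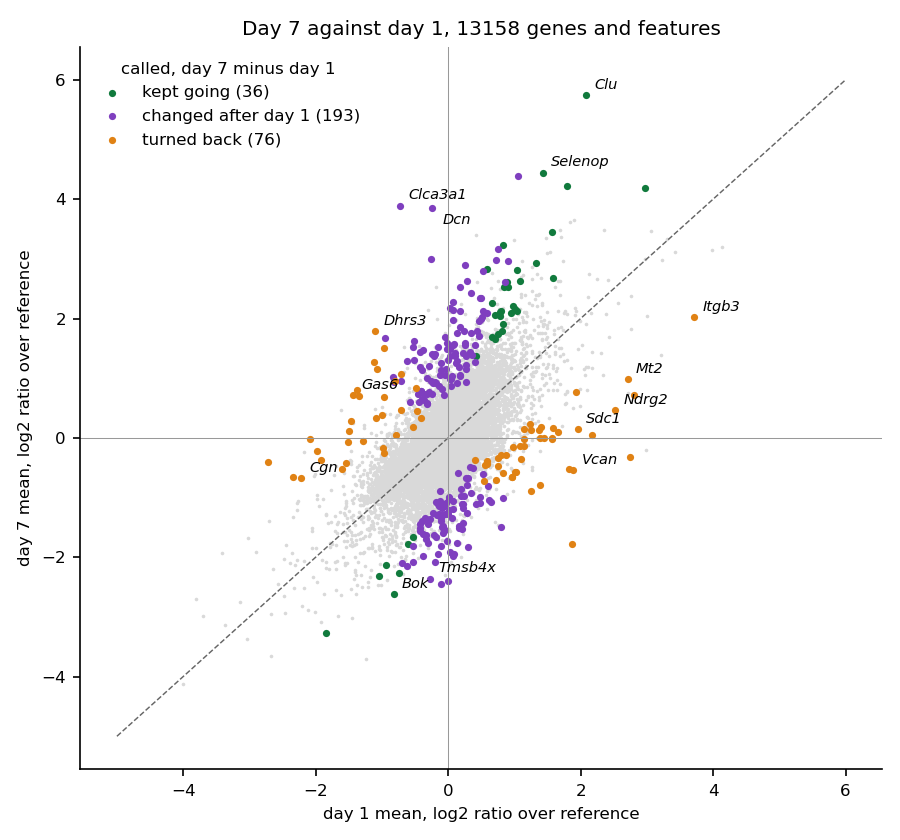
Mean log2 ratio over the undifferentiated reference at day 7 (vertical axis) against day 1 (horizontal axis) for 13158 genes and features; each grey point is 1 gene or feature, coloured points are those called between the days, and the dashed line marks equality. Of the called points, 193 changed after day 1, 76 turned back and 36 kept going; Clu is highest at day 7 among the genes named in the plot.

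The largest rise was that of Clca3a1, which encodes a member of the family of calcium-activated chloride channel regulators. Clca3a1 stood at 3.37, 3.61 and 4.70 at day 7, against -0.99, -0.46 and -0.73 at day 1. The groups were far apart, and the difference of 4.61 ± 0.46 (SE, n = 3 arrays a day, adjusted p = 4.22e-05, limma) is a 24.5-fold rise. The mouse family holds closely related copies, and cross-hybridisation between them was not tested. Every SE in the report comes from the limma fit to the 21 arrays of days 1 to 7. In that fit the spread of each gene is drawn towards that of all genes. An SE is therefore not the scatter of the 6 listed arrays alone. A fit of these 6 arrays alone kept 35 of the 167 gene calls. Dcn encodes decorin, a small proteoglycan that binds collagen fibrils, and is also on the fibroblast marker list, whose values are given with the other cell types. It stood at 3.37, 4.37 and 3.83 at day 7 and at -0.25, -0.47 and -0.02 at day 1, a rise of 4.10 ± 0.61 (adjusted p = 0.002). Clu, the gene of the secreted chaperone clusterin, was already above the reference at day 1 and went higher. Its values were 4.59, 6.03 and 6.62 at day 7, against 1.97, 2.34 and 1.93 at day 1, and it rose by 3.67 ± 0.55 (adjusted p = 0.002). Selenop, the gene of the plasma selenium carrier made by liver, followed the same pattern. Its values were 3.63, 4.09 and 5.61 at day 7, against 1.29, 1.57 and 1.42 at day 1, and it rose by 3.02 ± 0.49 (adjusted p = 0.00406). The genes were chosen among calls with no overlap between the arrays of the days, which 26.5% of the 5591 genes with a value on all 6 arrays had, 14.7% with day 7 higher and 11.8% with day 7 lower. Each of these calls held with any single array left out.

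Other large rises concerned enzymes and signalling proteins. Dhrs3, which encodes a reductase that turns retinaldehyde into retinol, stood at 1.32, 2.46 and 1.6 at day 7 and at -1.55, -0.38 and -1.38 at day 1. Its rise of 2.89 ± 0.52 (adjusted p = 0.00853) missed the threshold without day 1 array A (adjusted p = 0.0534) or day 1 array C (adjusted p = 0.0502). Gas6, which encodes the ligand of the Tyro3, Axl and Mertk receptors, had the least scatter. It stood at 0.78, 0.79 and 0.57 at day 7 and at -1.41, -1.50 and -1.40 at day 1, and it rose by 2.15 ± 0.40 (adjusted p = 0.0106). Dtx4, which encodes a ubiquitin ligase of the Deltex family linked to Notch signalling, was high on every one of the 6 arrays. Its values were 4.90, 3.89 and 3.86 at day 7, against 2.45, 0.87 and 2.07 at day 1. Its rise of 2.42 ± 0.45 (adjusted p = 0.0126) missed the threshold without day 1 array B (adjusted p = 0.0613). Phyhd1, Rsrp1, Lratd2, Gucy1a1 and C1ra rose by 2.36, 2.08, 2.39, 2.26 and 2.09. Gucy1a1 encodes a subunit of the nitric oxide receptor guanylate cyclase, and C1ra a protease of the complement system that has a near-identical mouse copy, so its signal is uncertain. Phyhd1 and Rsrp1 kept their calls with any single array left out. Lratd2 missed the threshold without day 1 array A (adjusted p = 0.0506), C1ra without day 1 array A or C (adjusted p = 0.0642 and 0.0552), and Gucy1a1 without any array other than day 7 array A (adjusted p = 0.0514 to 0.137).

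The largest falls were led by matrix and cytoskeletal genes. Vcan encodes versican, a large proteoglycan of provisional matrix. It stood at -1.16, -0.32 and -0.13 at day 7 and at 1.19, 2.78 and 1.70 at day 1, a difference of -2.42 ± 0.50 (adjusted p = 0.0207, limma). Having no overlap between the groups was a condition for naming these falls. The Vcan call was lost without day 1 array B (adjusted p = 0.106), day 1 array C (0.0648) or day 7 array A (0.0774). Col27a1, the gene of a fibrillar collagen chain, stood at -0.46, -0.48 and -1.43 at day 7 and at 1.70, 0.92 and 1.57 at day 1. Its difference of -2.18 ± 0.33 (adjusted p = 0.00251) held with any single array left out. Tmsb4x encodes thymosin beta-4, which binds actin monomers. It stood at -2.28, -1.78 and -3.01 at day 7 and at -0.09, -0.66 and -0.07 at day 1. Its difference of -2.09 ± 0.38 (adjusted p = 0.00939) missed the threshold without day 1 array A (0.0534), day 1 array C (0.0526) or day 7 array C (0.0513). Hnrnpf, the gene of an RNA-binding splicing regulator, was the most scattered of these at day 7. It stood at -1.94, -0.58 and -2.99 at day 7 and at 0.12, 0.87 and -0.08 at day 1, and the difference of -2.14 ± 0.46 (adjusted p = 0.0207) held only with all arrays or without day 7 array B (adjusted p = 0.0526 to 0.11 otherwise). Bok, which encodes a member of the Bcl-2 family, fell by 1.79 ± 0.33 (adjusted p = 0.0115), and missed the threshold without day 1 array A (0.0615), day 1 array C (0.0508) or day 7 array C (0.0513).

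**Figure D2:**
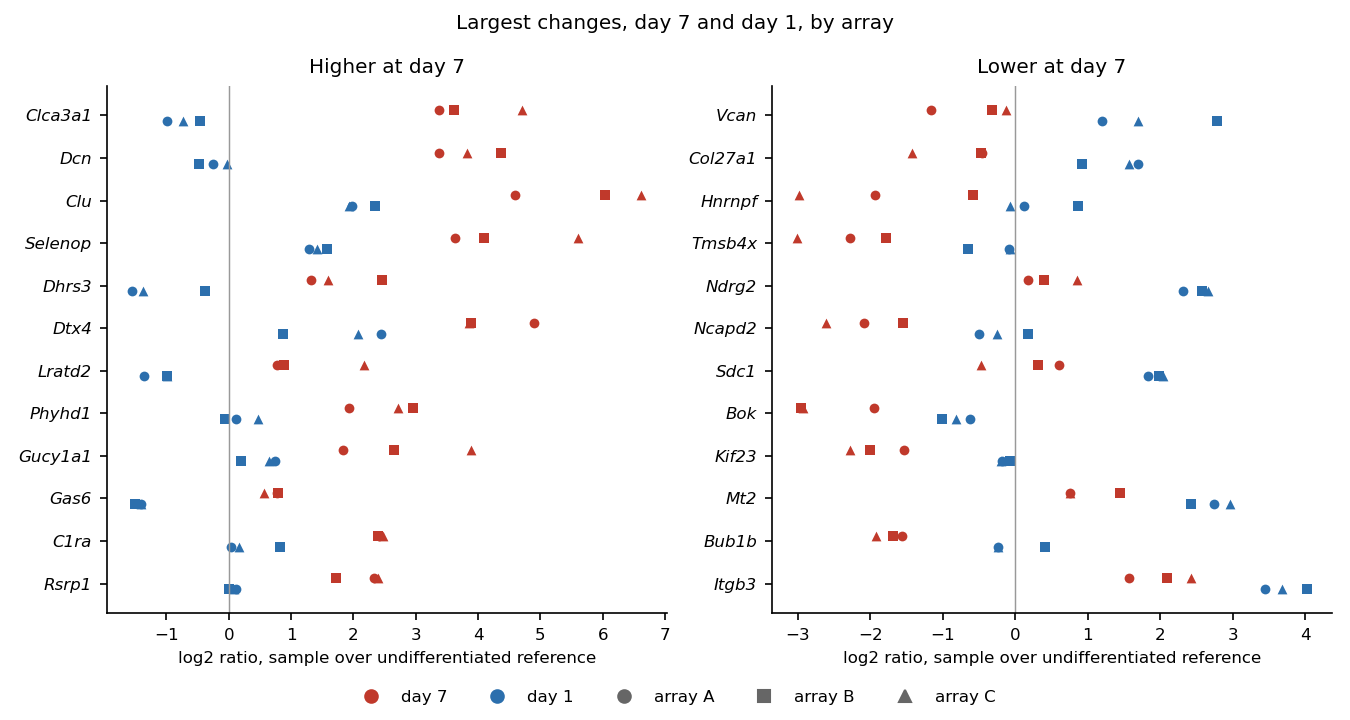
Log2 ratio over the undifferentiated reference (horizontal axis) on each array for the 12 genes with the largest rise (left) and the 12 with the largest fall (right); red marks are day 7, blue marks are day 1, and the shape gives the array letter. The genes were chosen for having no overlap between the days; the day 7 marks of Clca3a1 lie between 3.37 and 4.70 and its day 1 marks between -0.99 and -0.46.

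The calls were sorted by where each gene stood at day 1, with the mean log2 ratio of each day tested against 0 in the same fit. The day 1 arrays enter both sides of this sorting, so the counts are a description, and a dye bias is not removed from a level against the reference. Against the reference, 2316 of 13158 genes and features (17.6%) differed at day 1 and 4438 (33.7%) at day 7. Of the 305 calls, 193 (63.3%) were not called against the reference at day 1 and changed afterwards, 106 upward and 87 downward. Another 36 (11.8%) had moved by day 1 and went further the same way, 29 upward and 7 downward. The other 76 (24.9%) had moved by day 1 and turned back. These shares depended on the array scaling: with every array set to the same spread, 73.3% of 596 calls turned back, 3.02% went further and 23.7% changed after day 1. Without day 7 array C, 38.0% of 79 calls turned back, and without day 1 array B 42.5% of 106 did and 4.72% went further.

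Of the calls that turned back, 44 had been high at day 1, and 32 of these were no longer called against the reference at day 7. Sdc1, which encodes syndecan-1, a heparan sulfate proteoglycan that binds matrix proteins, shows the pattern. It stood at 0.60, 0.31 and -0.47 at day 7 and at 1.83, 1.99 and 2.04 at day 1, a difference of -1.81 ± 0.28 (adjusted p = 0.00229, limma), and on days 2 to 6 its means were 1.55, 1.36, 0.84, 0.56 and 0.33. Tubb3, a neuronal-type beta tubulin gene, stood at 0.07, -0.02 and -0.07 at day 7 and at 1.82, 1.27 and 1.61 at day 1, a difference of -1.57 ± 0.22 (adjusted p = 0.00113). Both calls held with any single array left out, and with the 6 arrays alone Sdc1 missed the threshold (adjusted p = 0.0516). Ndrg2, of the N-myc downstream-regulated family, stood at 0.17, 0.40 and 0.85 at day 7 and at 2.32, 2.57 and 2.66 at day 1. Its difference of -2.05 ± 0.42 (adjusted p = 0.0173) was lost without day 1 array A, B or C or day 7 array A (adjusted p = 0.0611 to 0.0749). Of 9 that went on to lie below the reference, Col27a1 is described above, and Col5a1, a fibrillar collagen gene, stood at -0.69, -0.37 and -0.67 at day 7 and at 1.14, 0.71 and 1.22 at day 1. It fell by 1.6 ± 0.26 (adjusted p = 0.00442), also with any single array left out. The phosphate transporter gene Slc20a1 fell by 1.43 ± 0.26 and missed the threshold without day 1 array C (adjusted p = 0.0532). In 3 cases the gene was still above the reference at day 7, and these were Itgb3, Mt2 and Smim3. Mt2, a metallothionein gene, stood at 0.76, 1.44 and 0.76 at day 7 and at 2.74, 2.43 and 2.96 at day 1. Its difference of -1.72 ± 0.41 (adjusted p = 0.0313) was lost without any array other than day 7 array B (adjusted p = 0.0725 to 0.123).

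The other 32 calls that turned back had been low at day 1. Of these, 19 were not called against the reference at day 7, which does not show that they had returned to it. Gas6, described above, was one of them, with a day 7 mean of 0.72 (adjusted p = 0.0597 against the reference, limma). Cavin2 and Sat1 also came near the threshold, with day 7 means of -0.65 and 0.68 (adjusted p = 0.0662 and 0.0696). Fam110c stood at 0.07, 0.22 and 0.03 at day 7 and at -1.52, -1.34 and -1.65 at day 1, a rise of 1.61 ± 0.28 (adjusted p = 0.00747, limma). Cavin2, which encodes a coat protein of caveolae, stood at -0.25, -1.17 and -0.53 at day 7 and at -2.15, -2.61 and -2.30 at day 1. The Cavin2 rise of 1.70 ± 0.38 (adjusted p = 0.0231) was lost without any array other than day 7 array B (adjusted p = 0.0683 to 0.106). Sat1 (polyamine acetylation), Daam2 (a formin) and Mtss1 (membrane bending) rose by 1.65, 1.56 and 1.45. Sat1 was lost when any single array was left out (adjusted p = 0.052 to 0.114). Daam2 was lost without day 1 array A or C or day 7 array B or C (0.114, 0.105, 0.0639 and 0.118), and Mtss1 without day 1 array A, B or C or day 7 array C (0.0811, 0.0739, 0.0502 and 0.0875). Another 10 went from below the reference to above it. Besides Dhrs3 and Lratd2 these include Ildr2, of tricellular junctions, and Plekhb2 (0.89, 0.71 and 0.90 at day 7, -0.71, -0.29 and -0.46 at day 1), which rose by 1.32 ± 0.22, a call that held with any single array left out but not with the replicate block over the 6 arrays alone (adjusted p = 0.0682). Ildr2 rose by 1.78 ± 0.35 (adjusted p = 0.0126) and missed the threshold without day 1 array A or C or day 7 array C (0.0623, 0.0532 and 0.0552). In 3 cases, among them Msmo1 and Cgn, the gene was still below the reference at day 7. Msmo1 encodes an oxidase of cholesterol synthesis, and it stood at -0.52, -0.15 and -0.57 at day 7 and at -1.69, -1.29 and -1.66 at day 1. It rose by 1.13 ± 0.19 (adjusted p = 0.00526), also with any single array left out, and with the 6 arrays alone the adjusted p was 0.0734, or 0.0918 with the array letter as a replicate block.

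**Figure D3:**
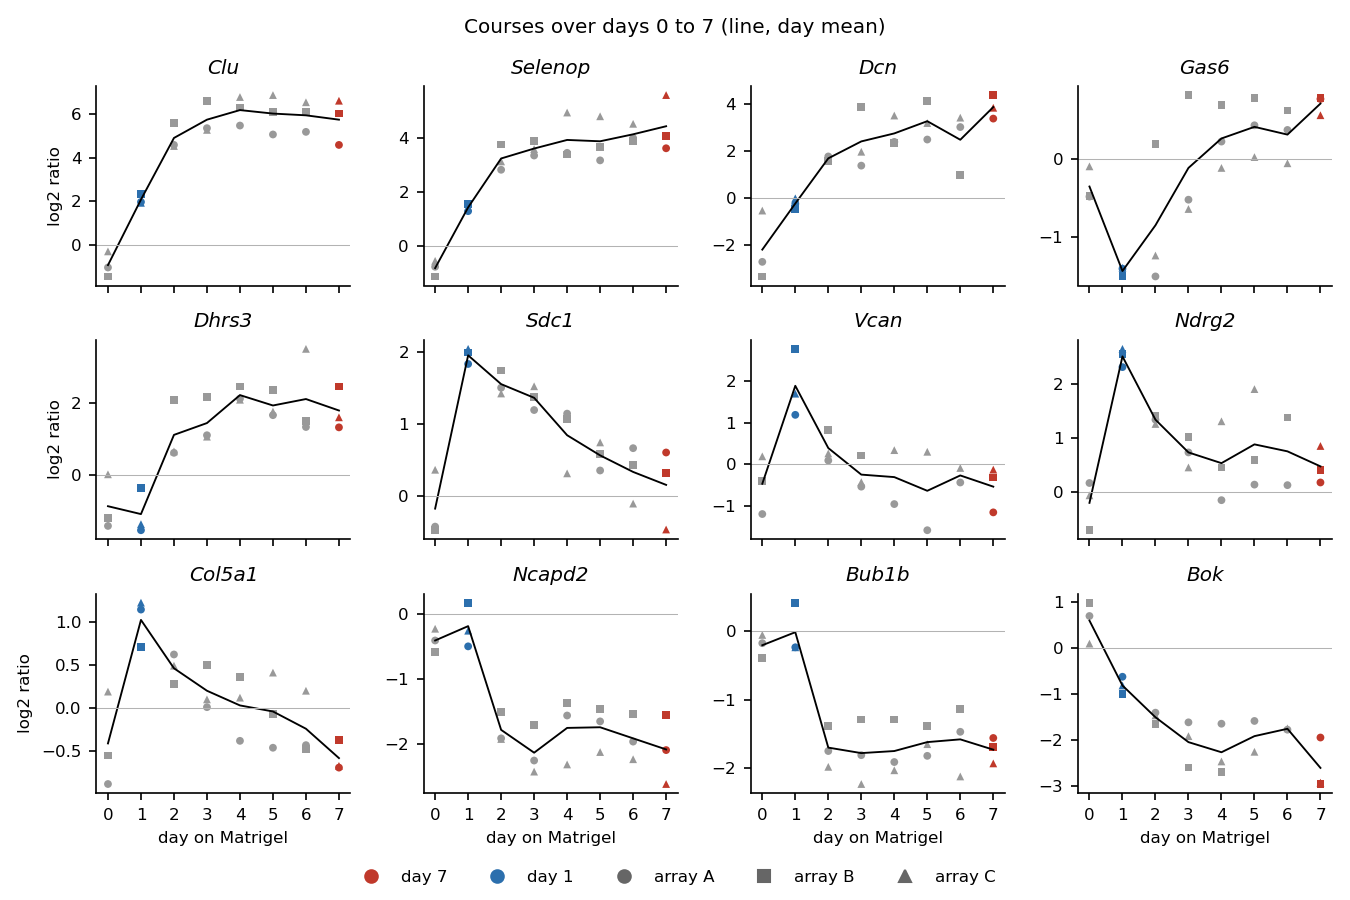
Log2 ratio over the undifferentiated reference (vertical axes, each with its own scale) by day on Matrigel (horizontal axis, days 0 to 7) for 12 called genes; red marks are day 7 arrays, blue marks day 1 arrays, grey marks other days, and the line joins the day means. Clu and Selenop were above the reference at day 1 and higher at day 7, and Sdc1, Vcan, Ndrg2 and Col5a1 were highest at day 1. The day means of Ncapd2 and Bub1b lay below the reference on every day, at -0.19 and -0.02 on day 1 and at -1.78 and -1.70 on day 2.

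Genes that had moved by day 1 and went further upward included Clu, Selenop and Dtx4, described above, and 5 lysosomal genes, given below. Of those that went further downward, Ppa1, which encodes a cytosolic inorganic pyrophosphatase, stood at -2.51, -1.74 and -2.12 at day 7 and at -1.03, -0.82 and -0.95 at day 1. It fell by 1.19 ± 0.21 (adjusted p = 0.00829, limma), and the call held with any single array left out. With arrays scaled to the same spread the difference was -0.54 (adjusted p = 0.322), and with the 6 arrays alone the adjusted p was 0.0816, or 0.0904 with the array letter as a replicate block. Bok stood at -1.95, -2.96 and -2.93 at day 7 and at -0.63, -1.01 and -0.82 at day 1. Rangrf and Hirip3 also fell, with differences of -1.16 and -1.12. Both were lost without day 7 array C (adjusted p = 0.137 and 0.0628) and without day 1 array B (0.119 and 0.0725), and Rangrf also without day 1 array A (0.146), day 1 array C (0.0585) or day 7 array B (0.0566).

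The days in between show the course of the called genes. The median level of the 90 genes that rose was 0.04 at day 1, 0.43 at day 2, 0.68 at day 3, 0.84 at day 4, 1.02 at day 5, 1.00 at day 6 and 1.28 at day 7. The median level of the 77 that fell was 0.16 at day 1, -0.39 at day 2, -0.70 at day 3, -0.93 at day 4, -1.01 at day 5, -0.92 at day 6 and -1.13 at day 7. The arrays of days 2 and 6 do not enter the day 7 minus day 1 difference, but they enter each gene's estimate of spread and so its call. From day 2 to day 6, 74 of 86 rising genes with values were higher at day 6, with a median difference of 0.51, and 55 of 76 falling genes were lower, with a median of -0.39. Among all 6348 genes with values 3024 were higher at day 6, and their median was -0.03. With arrays A and B alone, the counts were 70 of 83 and 57 of 75, with medians of 0.45 and -0.41.

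**Figure D4:**
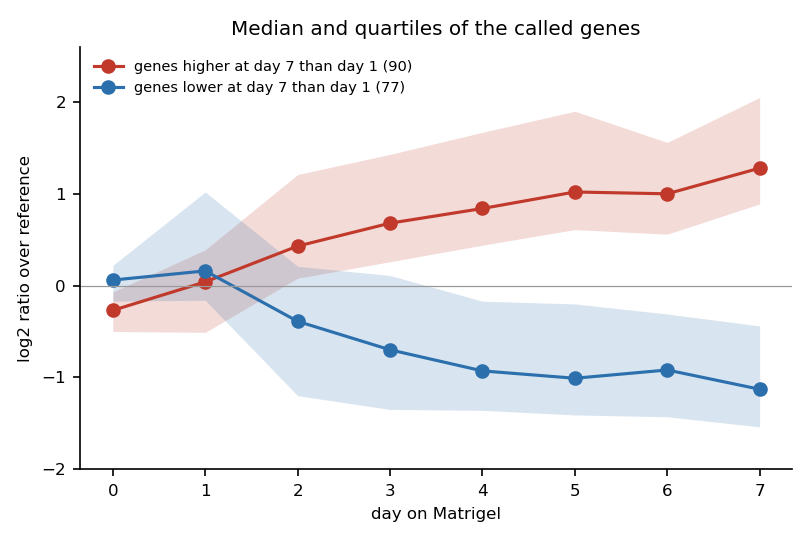
Median log2 ratio over the undifferentiated reference (vertical axis; shading, lower to upper quartile over genes) by day on Matrigel (horizontal axis) for the 90 genes called higher at day 7 than day 1 (red) and the 77 called lower (blue). The separation at days 1 and 7 is set by how the genes were chosen; both medians lie between their day 1 and day 7 values on days 2 to 6.

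Transcripts of DNA synthesis and cell division lay lower at day 7. Of 81 genes measured on the DNA replication and cell cycle list, 15 fell and 0 rose, against 1.17% lower and 1.37% higher among all genes. Without adjustment, 41 of the 81 were lower and 0 higher at p under 0.05 (limma), against 510 lower (7.77%) and 572 higher (8.72%) among all 6561 genes. The median difference over the list was -0.71, against 0.02 over all genes, and 72 of the 81 lay below 0. The list median was -1.01, -0.99 and -1.07 at day 7 and -0.40, -0.08 and -0.45 at day 1, so every day 7 array lay below every day 1 array. By day the list median was -0.31 at day 1, -1.25 at day 2, -1.19 at day 3, -0.94 at day 4, -1.03 at day 5, -1.12 at day 6 and -1.05 at day 7, so the low level was reached by day 2. Without day 7 array C 5 members fell (median -0.68), without day 1 array B also 5 (-0.58), without day 1 array A or C 6 each, and without day 7 array A 9. With arrays scaled to the same spread 8 fell, at a median of -0.39.

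The mitotic members led this group. Ncapd2 encodes a subunit of condensin, which compacts chromosomes. It stood at -2.09, -1.55 and -2.61 at day 7 and at -0.50, 0.17 and -0.26 at day 1, a difference of -1.89 ± 0.31 (adjusted p = 0.00442, limma). Kif23, the gene of a kinesin of cytokinesis, stood at -1.54, -2.0 and -2.28 at day 7 and at -0.18, -0.08 and -0.20 at day 1, a difference of -1.78 ± 0.32 (adjusted p = 0.00894). Bub1b, the gene of a spindle checkpoint kinase, stood at -1.56, -1.69 and -1.93 at day 7 and at -0.24, 0.41 and -0.24 at day 1, a difference of -1.70 ± 0.30 (adjusted p = 0.00715). These 3 genes were among the largest falls, chosen for having no overlap between the arrays of the days. Their calls held with any single array left out, while with the 6 arrays alone Ncapd2 missed the threshold (adjusted p = 0.053). Ccnb2, the cyclin B2 gene, had no value on day 7 array B. The other day 7 arrays read -2.27 (A) and -1.69 (C), against -0.01, 0.40 and -0.15 at day 1, a difference of -2.06 ± 0.38 (adjusted p = 0.0118), and without day 7 array A or C it was not testable. The 11 other members that fell are named after their values were seen. Mcm5, Rfc3 and Rad51ap1, of DNA replication and repair, had differences of -1.48, -0.75 and -0.94, and the transcription factor gene Foxm1, an activator of mitotic genes, one of -1.10. Plk1, Cks1b, Cks2, Kif22, Nuf2, Smc2 and Stmn1 fell by 1.0 to 1.66, and of the 11 Foxm1 alone held with any single array left out. Foxm1 was not called in every alternative.

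The promoters of the 4 called cell cycle genes with the largest differences are shown for 2 motifs known from promoters of mitotic genes, the cell cycle homology region (CHR, searched as TTTGAA) and the CCAAT box (searched as CCAAT), each on both strands. They are RefSeq sequences of build GRCm38.p6, the 250 bases before each gene's start, read 5′ to 3′ along the gene's strand, with motif matches in capitals. Ccnb2 lies at chr9:70421555-70421804 on the minus strand, Ncapd2 at chr6:125191587-125191836 on the minus strand, Kif23 at chr9:61946800-61947049 on the minus strand and Bub1b at chr2:118597961-118598210 on the plus strand.
Ccnb2: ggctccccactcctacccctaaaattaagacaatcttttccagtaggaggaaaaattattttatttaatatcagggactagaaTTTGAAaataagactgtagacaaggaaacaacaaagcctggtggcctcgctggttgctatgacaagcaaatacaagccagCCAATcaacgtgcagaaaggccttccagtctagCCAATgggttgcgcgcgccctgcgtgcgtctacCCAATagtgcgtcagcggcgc
Ncapd2: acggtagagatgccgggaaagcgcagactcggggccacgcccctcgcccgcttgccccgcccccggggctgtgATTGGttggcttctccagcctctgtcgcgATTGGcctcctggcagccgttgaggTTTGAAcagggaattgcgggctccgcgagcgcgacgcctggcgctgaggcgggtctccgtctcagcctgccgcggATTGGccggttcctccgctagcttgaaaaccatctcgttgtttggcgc
Kif23: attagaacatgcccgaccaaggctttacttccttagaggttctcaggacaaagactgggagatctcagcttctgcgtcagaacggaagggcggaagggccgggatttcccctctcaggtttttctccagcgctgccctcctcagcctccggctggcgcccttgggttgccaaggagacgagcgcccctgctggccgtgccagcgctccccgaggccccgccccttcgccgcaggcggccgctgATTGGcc
Bub1b: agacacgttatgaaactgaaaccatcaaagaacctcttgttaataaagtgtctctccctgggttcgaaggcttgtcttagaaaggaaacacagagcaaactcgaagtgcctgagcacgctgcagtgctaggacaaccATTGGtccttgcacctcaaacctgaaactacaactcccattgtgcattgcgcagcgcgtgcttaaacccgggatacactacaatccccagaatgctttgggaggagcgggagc
The Ccnb2 and Ncapd2 windows each hold 1 CHR match and 3 CCAAT boxes, and those of Kif23 and Bub1b hold 1 CCAAT box and 0 CHR matches. Of the 15 cell cycle genes that fell, 13 had a promoter in the RefSeq table, and of these 12 (92.3%) held a CCAAT box and 5 (38.5%) a CHR match. Of 56 measured members that did not pass and had a promoter in that table, 33 (58.9%) held a CCAAT box and 13 (23.2%) a CHR match. Over the promoters of all 27025 genes in that table, windows of the same length held a CCAAT box in 34.5% and a CHR match in 16.3%. The E2F site (searched as TTCCCGC, as TTGGCGC and as TTCGCGC on both strands) was present in 3 of the 13 (23.1%), in 12 of the 56 (21.4%) and in 6.79% of all. The motifs were searched separately, and in the 4 windows printed no CHR match overlaps a CCAAT box. These matches describe letters only.

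**Figure D5:**
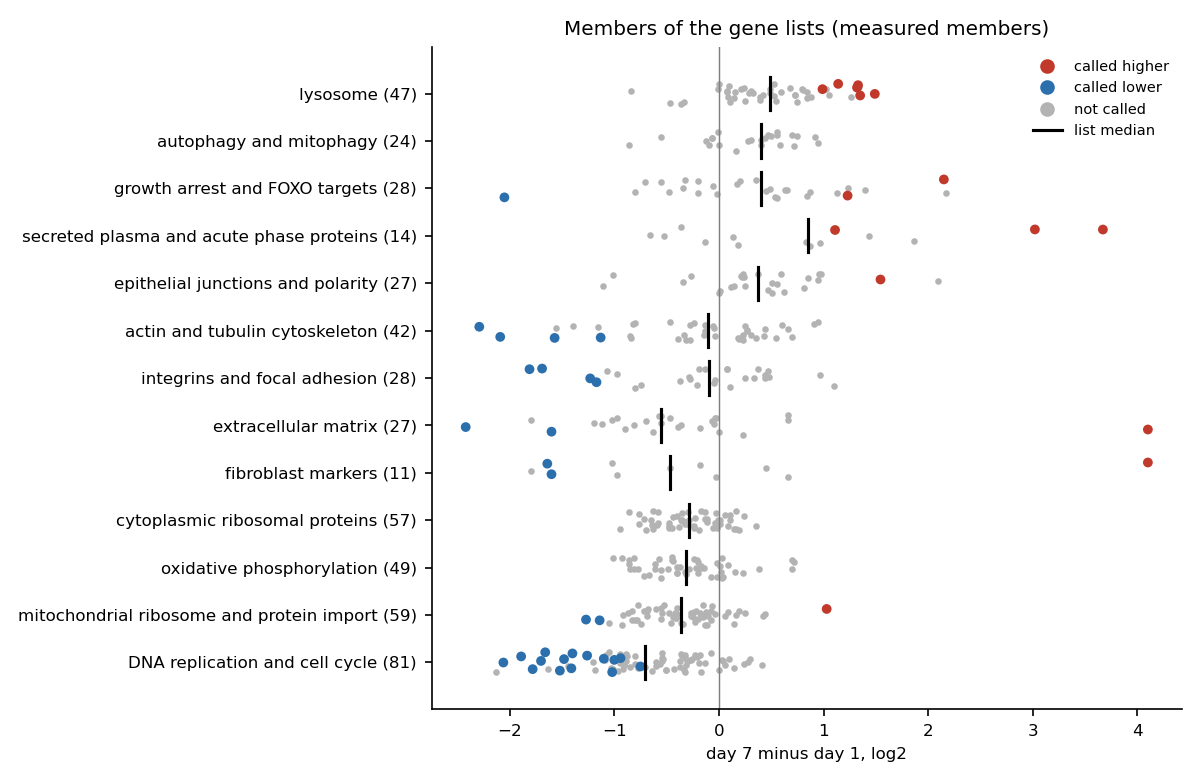
Difference in log2 ratio, day 7 minus day 1 (horizontal axis), for the measured members of 13 gene lists (number of members in parentheses); each point is 1 gene, red is called higher, blue called lower and grey not called, and the black bar is the list median. The median lies at -0.71 for the cell cycle list and at 0.49 for the lysosome list.

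Lysosomal transcripts lay higher at day 7. Of the 47 lysosome genes with values, 6 rose and 0 fell, against 1.37% higher among all genes. The list median of the differences was 0.49, and 42 of 47 lay above 0. At an unadjusted p under 0.05 (limma) 17 were higher and 1 lower, against 8.72% higher and 7.77% lower among all genes. The list median was 0.83, 1.29 and 0.72 at day 7, against 0.58, 0.47 and 0.52 at day 1. Atp6ap2, the gene of an accessory subunit of the proton pump that acidifies lysosomes, stood at 2.04, 2.02 and 2.11 at day 7 and at 0.93, 0.59 and 0.60 at day 1. It rose by 1.35 ± 0.31 (adjusted p = 0.027, limma). Ctsl, the gene of the protease cathepsin L, stood at 1.90, 2.44 and 1.61 at day 7 and at 0.40, 0.52 and 0.57 at day 1, a rise of 1.49 ± 0.35 (adjusted p = 0.0322). The membrane protein genes Laptm4b and Lamp2 rose by 1.33 ± 0.31 and 1.32 ± 0.26, and the enzyme genes Hexa and Tpp1, named after their values were seen, by 1.14 and 0.99. In these 6 genes, picked because they were called, every day 7 array lay above every day 1 array. Of 45 list members with a value on all 6 arrays, 20 had no overlap with day 7 higher and 1 with day 7 lower. Among all such genes the shares were 14.7% and 11.8%. Of the whole list limma called 0 genes without day 7 array C (list median 0.58), day 1 array A or day 1 array B, 1 without day 1 array C, 2 without day 7 array B and 3 without day 7 array A. Of the 6 genes called with all arrays, Lamp2 was called in 3 of these fits, Tpp1 in 2 and the others in 0. With arrays scaled to the same spread 0 were called, at a median of 0.21. Atp6ap2, Ctsl and Laptm4b were lost when any single array was left out (adjusted p = 0.0527 to 0.111, 0.0552 to 0.124 and 0.0627 to 0.119). Lamp2 was lost without day 1 array A or B or day 7 array C (0.0616, 0.0636 and 0.0731). Of 24 measured autophagy members 0 passed by limma. At an unadjusted p under 0.05, 6 of them were higher and 1 lower, beside the same 8.72% and 7.77% among all genes. The autophagy median was 0.40, and 0.26 without day 7 array C and 0.03 with arrays scaled. The CLEAR motif of lysosomal gene promoters (searched as TCACGTG on both strands) was present in 0 of the 5 called genes with a promoter in the table. It was present in 8 of the 33 genes not called that had a promoter there (24.2%), and in 3.15% of all.

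Of 14 measured secreted plasma and acute phase proteins 3 rose and 0 fell, with a median of 0.85, against 1.37% higher among all genes. Without day 7 array C 2 members rose. With all arrays, the member that rose besides Clu and Selenop was B2m, the gene of the light chain of class I histocompatibility molecules, which is also on the interferon list. B2m stood at 0.14, 1.17 and 0.89 at day 7 and at -0.35, -0.47 and -0.28 at day 1, a rise of 1.11 ± 0.29 (adjusted p = 0.0499, limma), lost without any array other than day 7 array A (adjusted p = 0.123 to 0.179). Lbp, the gene of the lipopolysaccharide-binding protein, stood at 2.89, 4.31 and 2.85 at day 7 and at 1.25, 1.90 and 1.30 at day 1. The Lbp arrays did not overlap, and the difference of 1.86 ± 0.57 did not pass (adjusted p = 0.106).

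Matrix genes other than decorin lay mostly lower at day 7. Of 27 measured extracellular matrix genes 1 rose, Dcn, and 2 fell, Vcan and Col5a1, against 1.37% higher and 1.17% lower among all genes. Of the 27, 23 lay below 0, with a list median of -0.55. Col27a1 was not on this list. The list median was 0.12, -0.20 and -0.13 at day 7 and 0.52, 0.08 and 0.56 at day 1, so the arrays of the days overlapped. Without day 7 array C the median was -0.22. Of 16 matrix proteases and inhibitors 1 fell, Adamts4, which encodes a protease that cleaves versican and aggrecan, and 0 rose. Adamts4 stood at 0.38, -0.05 and -0.33 at day 7 and at 1.90, 0.66 and 1.6 at day 1, a difference of -1.39 ± 0.28 (adjusted p = 0.0164, limma), lost without day 1 array A or C or day 7 array C (adjusted p = 0.0933, 0.0795 and 0.0803). Tgfbi, the gene of a secreted matrix protein, differed by -0.39 ± 0.57 (adjusted p = 0.78), and Cemip, of hyaluronan breakdown, by 0.23 ± 0.45 (adjusted p = 0.836). With 1 array left out these differences ranged from -0.92 to 0.03 for Tgfbi and from -0.34 to 0.54 for Cemip.

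Adhesion genes that fell had been high at day 1. Of 28 measured integrin and focal adhesion genes 4 fell, Sdc1, Itgb3, Tln2 and Itga6, and 0 rose, against 1.17% lower among all genes. Without day 7 array C 2 members fell. The list median was -0.09, and it turned to 0.05 without day 7 array C and to 0.21 with arrays scaled. Itgb3, the integrin beta 3 gene, stood at 1.57, 2.09 and 2.42 at day 7 and at 3.45, 4.02 and 3.68 at day 1. Its difference of -1.69 ± 0.41 (adjusted p = 0.0399, limma) was lost when any single array was left out (adjusted p = 0.0649 to 0.164). Itga6, the gene of a laminin-binding integrin subunit, stood at 0.38, -0.28 and -0.17 at day 7 and at 1.10, 0.97 and 1.39 at day 1. It fell by 1.17 ± 0.22 (adjusted p = 0.0126) and missed the threshold without day 1 array A or C or day 7 array C (adjusted p = 0.0534, 0.0669 and 0.0556). Tln2, a talin gene, stood at -0.45, -0.13 and 0.15 at day 7 and at 1.21, 0.63 and 1.43 at day 1, and it fell by 1.23 ± 0.26, lost without day 1 array A or C or day 7 array A (adjusted p = 0.0893, 0.0999 and 0.0767). Of 42 actin and tubulin genes 4 fell, Tmsb4x, Tubb3, Tagln2 and Tubb2b, and 0 rose, against the same 1.17% lower. Without day 7 array C 1 member fell. This list's median was -0.10, and 0.10 without day 7 array C and 0.22 with arrays scaled. Tagln2, an actin-binding transgelin gene, had no value on day 7 array B and read -0.95 (A) and -2.03 (C) at day 7, against 0.26, 1.18 and 0.96 at day 1. Its difference of -2.29 ± 0.49 (adjusted p = 0.0237) was lost without day 1 array B or C (0.0973 and 0.0889) and not testable without day 7 array A or C. Tubb2b fell by 1.13 ± 0.25 with all arrays, and its difference was -0.72 without day 7 array C (adjusted p = 0.0911), where its value was -2.39 against -1.28 and -1.03 on day 7 arrays A and B. That call was also lost without any one day 1 array (adjusted p = 0.0725 to 0.0989 over these 4 fits). Actb, the gene of beta-actin, stood at -1.71, -0.98 and -4.04 at day 7 and at -0.78, -2.0 and -1.42 at day 1, so the arrays overlapped, and its difference of -0.84 ± 0.85 (adjusted p = 0.67) was 0.06 without day 7 array C.

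Of 27 measured genes of epithelial junctions and polarity 1 rose, Cgn, and 0 fell, with 23 above 0 and a list median of 0.37. Among all 6561 genes 1.37% rose, and 3415 lay above 0. At an unadjusted p under 0.05 (limma) 9 list members were higher and 1 lower, against 8.72% and 7.77% among all genes. Cgn encodes cingulin, a protein of tight junctions. It stood at -0.16, -0.91 and -0.95 at day 7 and at -2.03, -2.71 and -1.91 at day 1, and the rise of 1.54 ± 0.36 (adjusted p = 0.0312, limma) was lost without any array other than day 7 array B (adjusted p = 0.0646 to 0.157). The list median was -0.20, -0.44 and 0.15 at day 7 and -0.64, -0.76 and -0.71 at day 1. Every array of day 7 lay above every array of day 1 in this median, though it remained below 0 on 2 of the 3.

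Some signalling genes passed, and their counts stand beside 1.37% higher and 1.17% lower among all genes. Of 27 measured TGF-beta and BMP pathway genes 2 fell, Fst and Fstl1, and 0 rose. Fst, the gene of the activin-binding protein follistatin, stood at -1.95, -1.82 and -2.16 at day 7 and at -0.65, 0.07 and -0.56 at day 1, a difference of -1.59 ± 0.30 (adjusted p = 0.0115, limma), missed without day 1 array B (0.0634) or day 7 array C (0.0503). Bmp4 was scattered at day 7, at -1.42, 0.71 and -2.48, against -2.47, -2.04 and -2.27 at day 1, and did not pass (1.20 ± 0.54, adjusted p = 0.298). The Bmp4 difference was 0.31 without day 7 array B and 1.91 without day 7 array C. Id3, a target of BMP signalling, stood at 0.47, 1.32 and 0.22 at day 7 and at -0.63, -0.50 and -0.62 at day 1, with no overlap and a difference of 1.26 ± 0.36 that did not pass (adjusted p = 0.0824). Of 24 Wnt pathway genes Wnt2 alone fell, with a difference of -1.46 ± 0.26 (adjusted p = 0.0142), with values of -0.03 and 0.01 on day 7 arrays A and C and 1.83, 1.14 and 1.37 at day 1. Wnt2 missed the threshold without day 1 array A or C (adjusted p = 0.0645 and 0.0526) and was not testable without day 7 array A or C. The receptor gene Fzd1 and the beta-catenin gene Ctnnb1 differed by 0.23 ± 0.67 and 0.90 ± 0.33 (adjusted p = 0.902 and 0.18), and Fzd1 by -0.50 without day 7 array C. Of 15 Notch pathway genes 1 rose, Dtx4, and 0 fell. Of 28 growth arrest genes 2 rose, Gas6 and Trp53inp1, and 1 fell, Ndrg2, with a median of 0.40. Trp53inp1, a p53-induced gene, rose by 1.23 ± 0.26 (adjusted p = 0.0231), with no value on day 7 array B, and missed the threshold without day 1 array A, B or C (adjusted p = 0.0763 to 0.0864).

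Liver lineage markers were measured only in part, and ratios against the same line do not give absolute levels, so the labelled cell type was not checked by level. Of 59 hepatocyte and hepatoblast markers 7 were measured, and 0 passed by limma, with a median of 1.26. At an unadjusted p under 0.05, 2 were higher and 2 lower, beside 8.72% and 7.77% among all genes. Afp, the serum protein gene of fetal liver, stood at 0.61, 2.65 and 0.81 at day 7 and at 0.21, -0.47 and -0.05 at day 1, with no overlap. Its difference of 1.46 ± 0.73 did not pass (adjusted p = 0.349, limma), and array B of day 7 lay well above the other two. Igf2 and H19, imprinted transcripts of fetal liver, were also highest on array B at day 7. Their day 7 values were 0.81, 2.65 and 1.05 for Igf2 and 2.55, 5.29 and 2.11 for H19. At day 1 they stood at 0.43, -0.06 and 0.36 for Igf2 and 1.17, 0.19 and 1.63 for H19. Their differences of 1.26 ± 0.62 and 2.32 ± 0.88 did not pass (adjusted p = 0.338 and 0.194). Without day 7 array B the differences were 0.81 for Afp, 0.69 for Igf2 and 1.33 for H19, and the list median was 0.45. Apob, the gene of the main apolipoprotein of lipoproteins made by liver, stood at -0.39, -0.32 and 0.02 at day 7. At day 1 Apob stood at 0.30, 0.26 and 0.05, with no overlap and a difference of -0.43 ± 0.18 (adjusted p = 0.236, limma). Gpc3 also lay lower, with a difference of -0.56 ± 0.25 that did not pass. Of the 5591 genes with a value on all 6 arrays, 26.5% had no overlap between the days. Aldh1a1, a retinaldehyde dehydrogenase gene, stood at -1.08, -1.92 and -2.07 at day 7 and at -2.85, -3.21 and -3.03 at day 1, with no overlap and a difference of 1.34 ± 0.37 (adjusted p = 0.0627). Of 35 bile duct markers 9 were measured, of which 1 fell, Itga6, and 0 rose. The duct keratin gene Krt19 differed by -0.13 ± 0.35 (adjusted p = 0.89) and Anxa4 by 0.65 ± 0.22 (adjusted p = 0.14). Alb, Hnf4a, Sox9 and Spp1 were not analysed here.

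Markers of other cell types moved in both directions. Of 11 measured fibroblast markers, the cell type of the feeder layer, 1 rose, Dcn, and 2 fell, Col5a1 and Fstl1, while 8 of 11 lay below 0. Their median level was 0.50, 0.36 and -0.09 at day 7 and 0.56, 0.15 and 0.59 at day 1, so the arrays of the days overlapped. Dcn rose while the fibroblast list had a median difference of -0.47, with -0.18 without day 7 array C and -0.93 without day 1 array B, and the part of feeder cells in the Dcn, Col5a1 and Fstl1 differences was not tested. Fstl1, of the follistatin-like family, stood at -1.27, -1.30 and -1.85 at day 7 and at 0.17, -0.16 and 0.48 at day 1, a difference of -1.64 ± 0.37 (adjusted p = 0.025, limma) that was lost without day 7 array C or day 1 array A, B or C (adjusted p = 0.0543 to 0.116). Of the 4 smooth muscle and stellate cell markers measured, 4 lay above 0, with a median difference of 0.62 (0.54 to 1.14 over the alternatives). Their median level was 0.46, 0.44 and -0.44 at day 7 and -0.90, -0.93 and -0.39 at day 1, so the arrays of the days overlapped, and their part in the Dcn difference was not tested. Of 4 smooth muscle and stellate, 3 endothelial and 4 blood cell markers measured, 0 passed by limma, with 1 higher, 1 lower and 1 lower at an unadjusted p under 0.05. Among all genes the unadjusted shares were 8.72% higher and 7.77% lower.

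Calls among genes of the translation and energy machinery likewise stand beside 1.37% higher and 1.17% lower among all genes. Of 59 genes of the mitochondrial ribosome and protein import 2 fell, Mrps28 (difference -1.27 ± 0.32) and Mrpl42 (-1.14 ± 0.30), and 1 rose, the import channel gene Timm17a by 1.03 ± 0.26, with 50 below 0 and a median of -0.36, or -0.22 without day 7 array C. None of the 3 was called without any array other than day 7 array B (limma, adjusted p = 0.0948 to 0.2, 0.108 to 0.229 and 0.108 to 0.203). Of 49 genes of oxidative phosphorylation 0 passed by limma, with 6 lower and 0 higher at an unadjusted p under 0.05. Their median was -0.31, and -0.19 without day 7 array C, -0.12 when day 7 array A was left out and -0.52 when array B was. Of 57 cytoplasmic ribosomal protein genes 0 passed, with 3 lower and 0 higher unadjusted, a share lower no larger than the 7.77% of all genes. Their median was -0.29, and -0.11 without day 7 array A. The ribosomal list median was -0.47, -0.04 and -0.18 at day 7 and 0.06, 0.12 and -0.09 at day 1, so the arrays of the days overlapped. Of 17 genes of cholesterol and fatty acid synthesis 1 rose, Msmo1, and 0 fell. Of 19 genes of glycolysis and hypoxia Pkm fell by 1.45 ± 0.37 (adjusted p = 0.0471), and that call was lost when any single array was left out (adjusted p = 0.059 to 0.247). In detoxification and antioxidant defence 1 of 20 fell, Mt2, while its neighbour in function Mt1 stood at 1.05, 2.36 and 2.07 at day 7 and at 2.6, 2.87 and 2.79 at day 1 and did not pass (-0.93 ± 0.44, adjusted p = 0.313). The splicing list (46 measured) had 1 fall, Hnrnpf, the translation factor list (51 measured) 1 fall, Eif2b2, and the interferon list (18 measured) 1 rise, B2m. Of the interferon members 11 lay below 0, with a median of -0.39, or -0.09 without day 7 array C and 0.41 with arrays scaled. Proteasome (28), unfolded protein response (33), fatty acid oxidation and peroxisome (28), Hippo pathway (15) and immediate early (11) members had 0 calls by limma. At an unadjusted p under 0.05 these 5 lists had 0, 0, 4, 5 and 0 members higher and 1, 3, 0, 1 and 1 lower. Among all genes 8.72% were higher and 7.77% lower at that threshold.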

How the data were processed

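The authors deposited 1 table of log ratios for 24 arrays and 24157 features, read here as log2 with the sample (Cy5) on top. Neither base nor numerator is given in the sources used: base 2 is likely from the range (-6.25 to 6.90), and the sample on top is likely from the dyes in the labels, so scale and direction are unknown beyond that. How arrays were scanned, background-corrected and normalized, and why 170990 cells are empty, was not given in the sources used here. Column medians as deposited were 0.0137, -0.0253 and 0.0075 on the day 7 arrays, 0.010, 0.0094 and 0.005 for day 1, and between -0.0253 and 0.0295 over all arrays. The lowest correlation between any 2 arrays was -0.511, between day 0 array A and day 3 array B, and day 0 arrays A and C correlated at -0.344. The labels state the dyes, so the direction was kept, and no day 0 array enters the comparison.

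Of 24157 features, 13319 had 1 gene symbol in the platform annotation, 589 had several and stayed unnamed, and 10249 were not listed there. Symbols were updated through Entrez identifiers (13290 matched) with RefSeq names of GRCm38.p6, which gave 8315 symbols. Each array was centred on its median and features of a symbol were averaged. Day means of the 21 arrays of days 1 to 7 were fitted with limma 3.58.1 (lmFit, eBayes) in R 4.3.3. Tested were 6561 genes and 6597 unnamed features with at least 2 values on each of days 1 and 7. Tests were 2-sided with Benjamini-Hochberg adjustment over all 13158 at 0.05, and the median standard error was 0.308. In simulated data with 200 changed units, the fit recovered 25% of changes of 1 (log2) and 83% of changes of 2, with 7 false among 115 calls. The simulated noise was independent between arrays, and each unit had the same spread on all days. In the real data the late C arrays correlated at 0.802 to 0.963, and day 7 array C had a larger spread (SD 1.042). The simulated rates may therefore not hold for the real arrays.

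Named were the 12 largest rises and 12 largest falls among called genes with all 6 values and no overlap, up to 4 called members of each of 33 gene lists, the 6 largest changes of each course class, and a fixed set of liver and signalling genes. The members and lists were chosen with earlier results of these data known, and list counts are descriptions. Every list count is to be read beside the shares among all genes, 1.37% higher and 1.17% lower. Alternatives covered the arrays fitted, scaling, filters on empty cells, feature averaging, letter blocks, array weights and arrays left out.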

Additional observations from a re-analysis of the deposited data

How the results depend on the processing

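The letters A, B and C were not taken as pairing the arrays of days 7 and 1, whose same-letter deviations from the day mean correlated at 0.143, -0.019 and -0.036. Over all 21 arrays the estimated correlation within letters was 0.226. A replicate block (letter as fixed) gave 756 calls (404 higher, 352 lower), of which 20.0% turned back and 69.7% changed after day 1. The replicate block with letter as random gave 752 (401 and 351; 18.5% and 69.7%), and the replicate block over the 6 arrays alone 103 (70 and 33), of which 20.4% turned back, 0.971% went further and 78.6% changed after day 1. The first 2 of these fits kept all 167 gene calls and the third 45. The 6 arrays alone without a block gave 67 calls (46 and 21; 32.8% turned back, 17.9% went further, 49.3% changed after day 1), arrays scaled to the same spread 596 (335 and 261; 73.3%, 3.02% and 23.7%), and array weights, whose estimation ended with a convergence warning, 1282 (701 and 581; 36.2%, 29.7% and 34.1%). With the 4 late C arrays (days 4 to 7) left out, 272 were higher, and 31.0% of calls turned back, 17.8% went further and 51.2% changed after day 1. With 1 array left out, calls ranged from 59 to 270 (higher 35 to 123, lower 24 to 147), and 18.9% to 42.5% turned back, 4.72% to 17.7% went further and 46.8% to 66.1% changed after day 1. These fits kept between 34 and 109 of the 167 gene calls. No gene called in the report changed sign in any alternative in which it was testable, and 14 of the 167 were called in every alternative. The cause of these changes in count was not tested. Totals were 351 with all 24 arrays, 290 without centring, 261 and 267 with stricter filters on empty cells, 339 with every feature tested and 297 with the feature median. In the simulated data, with 3 arrays a day, changes of 1 (log2) were mostly not recovered.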

Other observations

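Several genes outside the naming rule were called with any single array left out, and they are named here after their values were seen. Igf1, the gene of insulin-like growth factor 1, had a mean log2 ratio of 0.336 at day 7 and -1.082 at day 1, a rise of 1.42 ± 0.234 (SE, adjusted p = 0.004, limma). Insig2, which encodes a protein that holds sterol-regulated SREBP factors in the endoplasmic reticulum, had a mean of 1.415 at day 7 and 0.098 at day 1, a rise of 1.32 ± 0.2. Tgm2, the gene of tissue transglutaminase, had a mean of 1.524 at day 7 and -0.531 at day 1, a rise of 2.055 ± 0.365. Enpp5 had a mean of 1.974 at day 7 and 0.074 at day 1, a rise of 1.9 ± 0.243. Of these genes, Enpp5 alone was called in every alternative.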
